A study of Mus musculus with 20 samples.

Results

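Eph receptors are receptor tyrosine kinases, and ephrins are the ligands that bind them on the surface of a neighbouring cell. Ephrins of the A class are tethered to the membrane by a lipid anchor and those of the B class cross it, and on contact a signal can run into the cell that bears the receptor and, in reverse, into the cell that bears the ephrin. The family is known for keeping cell populations apart, for guiding axons, and for vessel growth, in which Efnb2 marks arterial and Ephb4 venous endothelium. The array signals of 10 genes of the family were followed here in liver and white adipose tissue (WAT). They are the receptors Ephb1, Ephb2, Ephb3, Ephb4, Ephb6, Epha1 and Epha2 and the ligands Efnb1, Efnb2 and Efna1, of 28786 gene symbols on the array. The 10 genes were chosen by symbol with the difference between the genotypes already known, Ephb2 for its low signal in CD44KO(HFD) liver, so every comparison of the genotypes for them is a description and carries no test.

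The mice were wild type, WT(HFD), or lacked the cell-surface receptor CD44, CD44KO(HFD). All were C57BL/6 males aged 7 months, and both genotypes had been kept on a diet of 35% fat (HFD) over 21 weeks, so no group on normal chow is among these arrays. Each of the 4 groups, a genotype in liver or in WAT, had 5 arrays. The labels do not say whether a liver and a WAT array came from the same mouse, and where arrays are not from separate mice the spread between them may be technical. The CD44-deficient line, which lacks CD44 in every cell, had been backcrossed onto C57BL/6J.

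Values are log2 processed signals minus the 75th percentile of the array's spots, so that 0 stands for that percentile. The 10 genes were read by 13 probes. Where a gene had a pair of probes (Ephb2, Ephb4 and Efnb2) the brighter over all 20 arrays gave its value, and the dimmer is given beside it. Signals of different probes were not compared in level. A probe is a DNA strand of 60 bases whose letters come from the array files. The letters of the Ephb2 and Efnb2 probes are shown, since the widest difference between genotypes in liver and the widest higher signal in WAT were read by them and each gene had a second probe that can be set beside the first. Capitals mark the longest run shared with any of the 31 probes of other Eph receptors and ephrins on either strand, and of the probes other than the dimmer Ephb2 probe only a stretch of 30 bases around that run is given.
Ephb2, brighter probe, bases 1 to 30: aggatagTTGTTCTGtcttgggagacggtt
Ephb2, dimmer probe: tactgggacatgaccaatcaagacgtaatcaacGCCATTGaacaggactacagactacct
Efnb2, brighter probe, bases 25 to 54: tctatgctaaaCTGTGAAGAatcggatgaa
Efnb2, dimmer probe, bases 6 to 35: gtccttgagatgGAAGTAAgttatgccgtg

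The longest run that the brighter Ephb2 probe shared with another family probe was 8 of 60 bases, with a probe of Epha7, and that of the dimmer was 7 bases, with a probe of Epha4. The Efnb2 probes shared at most 9 bases, with Efna3, and 7 bases, with Epha5. By positions in the array files, whose header names build mm7, the brighter Ephb2 probe lies on the minus strand at chr4:136033124-136033183. The file positions of the ends of the dimmer probe, chr4:136035998-136037395, are 1398 bases apart. The Efnb2 probes lie on the minus strand of chromosome 8, the brighter at chr8:8588062-8588121 and the dimmer at chr8:8589107-8589166. No annotation of that build was used here, so exons are not stated.

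Across the series, the 75th percentile of the signal ran from 432.7 to 574.6 in liver and from 1540.9 to 2791.9 in WAT. Precision is limited by there being 5 arrays in a group. Between 57.4% and 61.9% of liver spots were well above background. In WAT the share was 63.2% to 69.5% on 9 arrays and 89.5% on WT(HFD) replicate 1, which stood apart. Over all probes, pairs of WT(HFD) WAT arrays correlated with r between 0.82 and 0.99, against 0.97 to 0.99 in CD44KO(HFD) WAT, and values that rest on that array are given with and without it. Cd44 itself, by its brightest probe, lay between 0.11 and 0.83 in WT(HFD) liver and between −4.19 and −3.24 in CD44KO(HFD) liver, and between 3.55 and 4.56 in WT(HFD) WAT and between −0.67 and −0.35 in CD44KO(HFD) WAT. Where these probes lie relative to the deleted part of the gene is not given in the sources used here. The tissues matched their labels. The 6 hepatocyte markers summed to between 1482 and 2270 times the 75th percentile in liver and to between 3.91 and 42.4 times in WAT. The 7 adipocyte markers summed to between 14.1 and 108 times in liver and to between 513 and 1216 times in WAT. Of these, Adipoq and Plin1 were well above background on 1 liver array of each genotype and Lep on none. Fabp4, Cidec, Lipe and Pparg were well above background on every liver array.

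**Figure D1:**
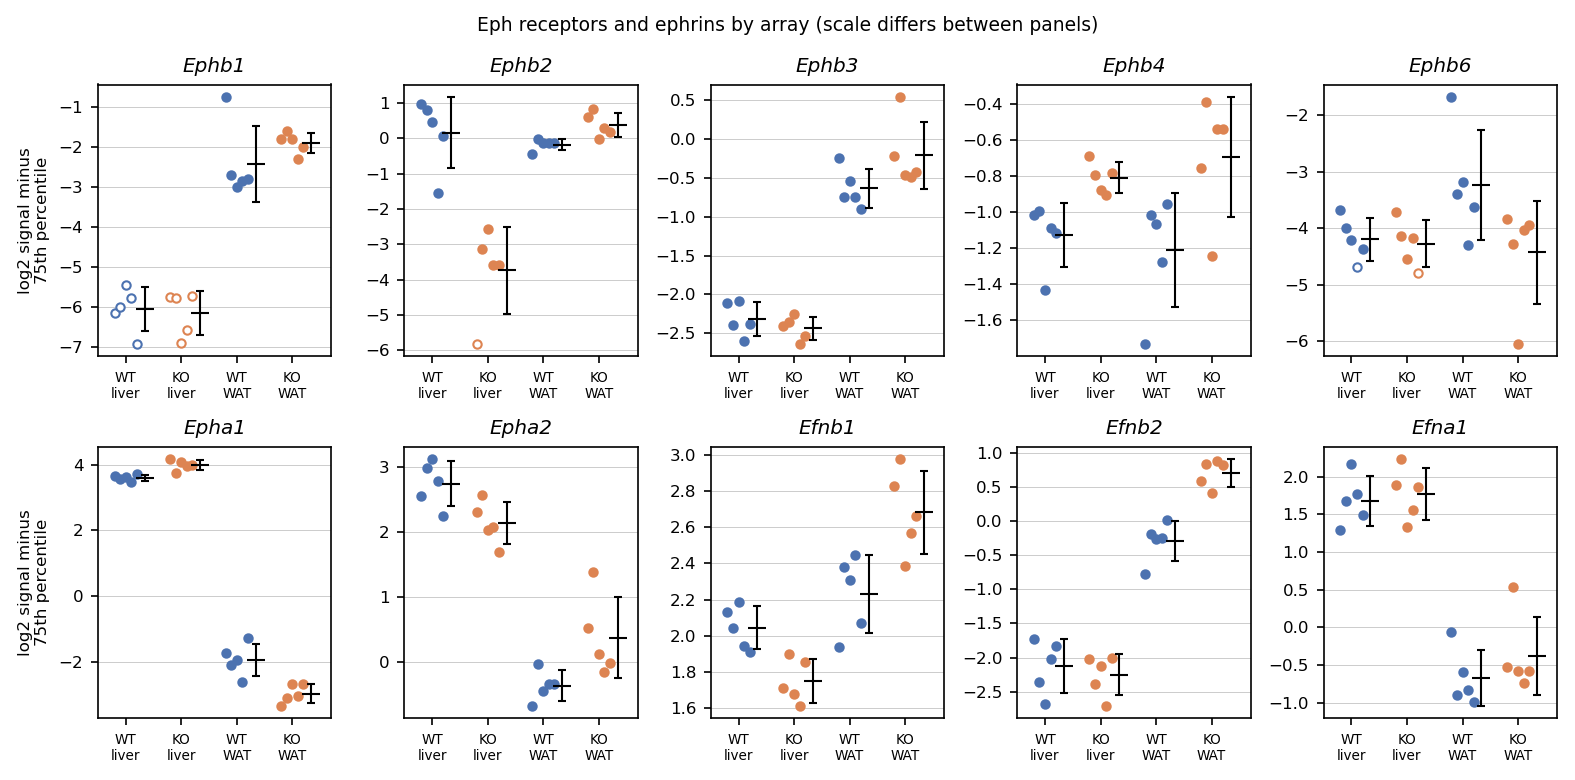
Log2 signal minus the array's 75th percentile (vertical axis, a scale of its own in each panel) of the 10 genes on every array, by group (horizontal axis, KO for CD44KO(HFD), WT for WT(HFD)). Filled points were well above background, open points were not, and bars give the mean ± 1 SD of 5 arrays. Ephb2 sits low in CD44KO(HFD) liver alone of its 4 groups, and Epha1, Epha2 and Efna1 sit higher in liver than in WAT.

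Ephb2, a receptor of B-class ephrins that is known for sorting cells in gut crypts and at synapses, was the gene of the family with by far the widest difference between genotypes in liver. On the 5 WT(HFD) liver arrays its log2 signals were −1.54, 0.08, 0.47, 0.81 and 0.98. On the 5 CD44KO(HFD) liver arrays they were −5.81, −3.57, −3.57, −3.14 and −2.57. No CD44KO(HFD) array reached the lowest WT(HFD) array, from which the nearest was 1.03 away, and the lowest CD44KO(HFD) signal, that of replicate 1, was not well above background. The mean was 0.16 ± 1.01 (SD, n = 5) in WT(HFD) and −3.73 ± 1.23 (SD, n = 5) in CD44KO(HFD). The difference was −3.89 on the log2 scale (SE 0.63), that is 14.9-fold lower or 6.73% of the WT(HFD) signal, and by size it was number 10 of the 24688 liver probes compared. Without CD44KO(HFD) replicate 1 it was −3.37.

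The liver arrays lay on 3 slides, each with as many WT(HFD) as CD44KO(HFD) arrays. Ephb2 was lower in CD44KO(HFD) on all of them, with differences of −2.99 on slide 1 and −3.60 on slide 2, which held 2 arrays of each genotype, and −6.28 on slide 3, which held 1 of each. Slide as a block in the fit leaves the difference at −3.89 by design, since the genotypes were balanced on every slide. With background correction of the unprocessed signals by normexp, in which an offset of 50 was added to every spot, it was −2.28.

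The dimmer Ephb2 probe had the same direction in liver. It read −5.31, −4.36, −4.18, −3.35 and −2.22 in WT(HFD), 4 of 5 arrays being well above background. In CD44KO(HFD) it read −7.13, −6.80, −6.67, −6.51 and −3.17, and of these only the last, replicate 3, was well above background. The 4 low arrays were all below the WT(HFD) range and replicate 3 was inside it. As read, the difference was −2.18 (SE 0.79). It is given without a fold, since 3 of the 4 low CD44KO(HFD) values were surrogates that the scanner software sets for the dimmest spots. Replicate 3 was also the highest of the CD44KO(HFD) liver arrays by the brighter probe.

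**Figure D2:**
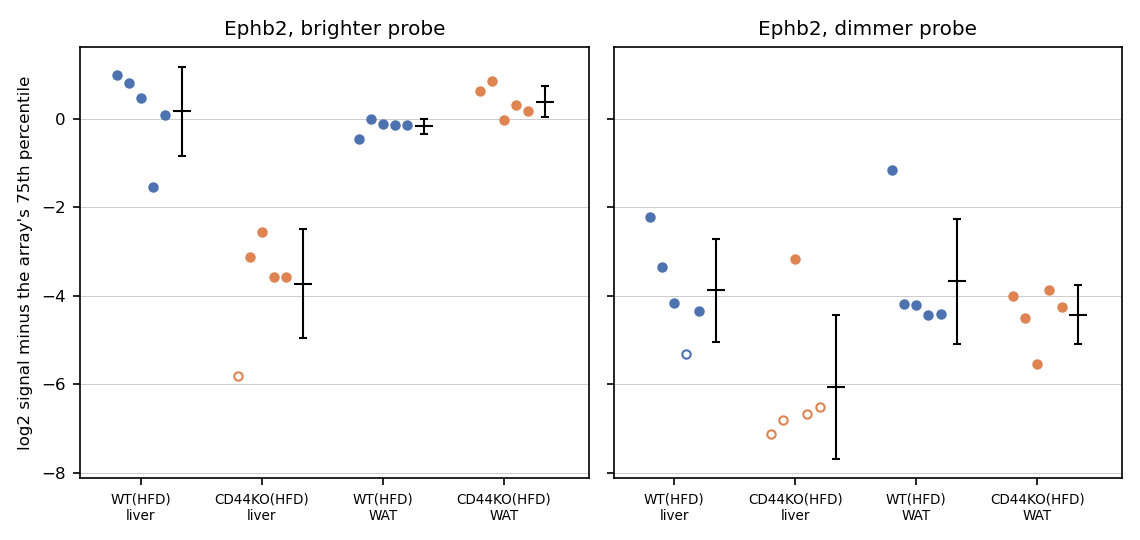
Ephb2 log2 signal minus the array's 75th percentile (vertical axis) by group (horizontal axis) for the brighter and the dimmer probe. Each point is 1 array, open points were not well above background, and bars give the mean ± 1 SD (n = 5). By the brighter probe CD44KO(HFD) liver lies between −5.81 and −2.57, apart from the other 3 groups, which overlap near 0.

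In WAT the direction of Ephb2 was the other way and the size far smaller. The WT(HFD) WAT arrays read −0.45, −0.14, −0.14, −0.13 and −0.02, and the CD44KO(HFD) WAT arrays −0.03, 0.18, 0.30, 0.61 and 0.84. The groups overlapped only in that the lowest CD44KO(HFD) array was just below the highest WT(HFD) array. The difference was 0.56 (SE 0.19), or 1.47-fold higher in CD44KO(HFD), and without WT(HFD) replicate 1 it was 0.49 (SE 0.19). It was 0.81 within slide 4, with 2 arrays of each genotype, and 0.07 within slide 5, with 3 WT(HFD) arrays and 1 CD44KO(HFD) array. The third WAT slide, slide 6, held CD44KO(HFD) arrays alone, and with slide as a block the difference was 0.49.

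In order of mean level, Ephb2 stood at 0.38 ± 0.35 (SD, n = 5) in CD44KO(HFD) WAT, 0.16 in WT(HFD) liver, −0.18 ± 0.16 (SD, n = 5) in WT(HFD) WAT and −3.73 in CD44KO(HFD) liver. Each of the first 3 groups overlapped its neighbour in that order, and CD44KO(HFD) liver was apart. The effect of the genotype in WAT minus that in liver was 4.45 (SE 0.70), and 4.38 (SE 0.73) without WT(HFD) WAT replicate 1.

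The other B-class receptors did not share the liver difference of Ephb2. Ephb4, the receptor of venous endothelium, was slightly higher in CD44KO(HFD) liver, with signals of −0.90, −0.88, −0.79, −0.78 and −0.69 against −1.43, −1.12, −1.09, −1.01 and −0.99 in WT(HFD). The groups did not overlap, and the difference was 0.32 (SE 0.09), or 1.25-fold. Its dimmer probe gave 0.26 (SE 0.11), with overlap. For Ephb3, a close relative of Ephb2 that shares its crypt role, the difference was −0.12 (SE 0.12), and the arrays of both genotypes lay between −2.63 and −2.08. Ephb6, whose kinase domain is inactive, differed by −0.08 (SE 0.23) near the dim end of the scale, with 4 of 5 arrays of each genotype well above background. Ephb1, a receptor best known from the nervous system, was not well above background on any liver array and was not compared there.

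Of the A-class receptors, Epha1 was higher in CD44KO(HFD) liver. It read 3.48, 3.55, 3.62, 3.67 and 3.71 in WT(HFD) and 3.75, 3.96, 4.0, 4.08 and 4.17 in CD44KO(HFD). All CD44KO(HFD) arrays were above all WT(HFD) arrays, and the difference was 0.38 (SE 0.09), or 1.31-fold. Epha2, an epithelial receptor of A-class ephrins, ran the opposite way. Its signals were 2.25, 2.56, 2.79, 2.98 and 3.12 in WT(HFD) and 1.69, 2.04, 2.07, 2.31 and 2.56 in CD44KO(HFD), which overlapped. The difference was −0.60 (SE 0.19), or 1.52-fold lower, the widest in liver after that of Ephb2.

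Among the ligands, Efnb1 was lower in CD44KO(HFD) liver, with 1.61, 1.68, 1.71, 1.86 and 1.90 against 1.91, 1.95, 2.05, 2.13 and 2.19 in WT(HFD). The groups were separate by a narrow margin and the difference was −0.29 (SE 0.09), or 1.22-fold. Efnb2, which like Efnb1 can bind Ephb2, differed by −0.13 (SE 0.20), and Efna1, a ligand of Epha2, by 0.09 (SE 0.20), both with overlapping groups.

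Over the family in liver, 6 of the 9 genes compared were lower and 3 higher in CD44KO(HFD), with a median difference of −0.12, against 0.08 over all probes compared. Leaving out Ephb2, the differences ran from −0.60 to 0.38. With normexp 3 genes were lower and 6 higher, since Ephb3, Ephb6 and Efnb2 then differed by 0.07, 0.24 and 0.08. In the fit of all probes (limma, adjusted p under 0.05) 4 of the 9 passed, against 13.6% of all probes. Ephb2 and Efnb1 were called lower, against 5.75% of probes, and Ephb4 and Epha1 higher, against 7.85%. The same 4 genes had groups that did not overlap, as had 11.7% of all probes. Of the 17 alternatives computed, Ephb2 was called under 17, Epha1 under 8, Efnb1 under 3 and Ephb4 under 2. These alternatives do not include the other probe of a gene. The dimmer probes of Ephb2 and Ephb4 were in the liver fit and were not called. The genes were chosen with this contrast known and nothing is read from any of these counts.

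**Figure D3:**
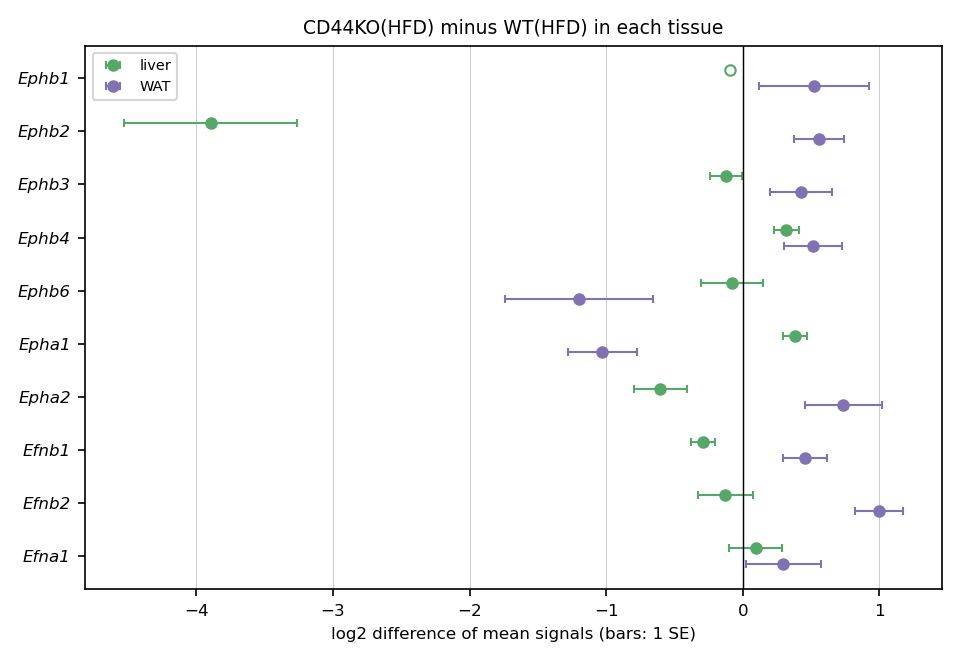
Difference of mean log2 signals, CD44KO(HFD) minus WT(HFD), on the horizontal axis for the 10 genes on the vertical axis, in liver and in WAT. Points are differences over 5 arrays of each genotype, bars give 1 SE from the fit, and the open point (Ephb1 in liver) was not well above background in either group. Ephb2 in liver lies at −3.89, and no other difference is beyond 1.20 in size.

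In WAT the widest differences were those of Efnb2, Epha1 and Ephb6. Efnb2, the arterial ligand, read −0.77, −0.26, −0.24, −0.19 and 0.01 in WT(HFD) and 0.41, 0.59, 0.82, 0.84 and 0.88 in CD44KO(HFD). No arrays overlapped, and the difference was 1.0 (SE 0.18), or 2.0-fold higher in CD44KO(HFD). Without WT(HFD) replicate 1 it was 0.88 (SE 0.15). Within slide 4 it was 1.33 and within slide 5 it was 0.55. The dimmer Efnb2 probe gave −0.38 (SE 0.73), a sign that rested on WT(HFD) replicate 1: that array read −1.04 where the other 4 WT(HFD) arrays read −5.00 to −4.72, and without it the dimmer probe gave 0.39 (SE 0.28).

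**Figure D4:**
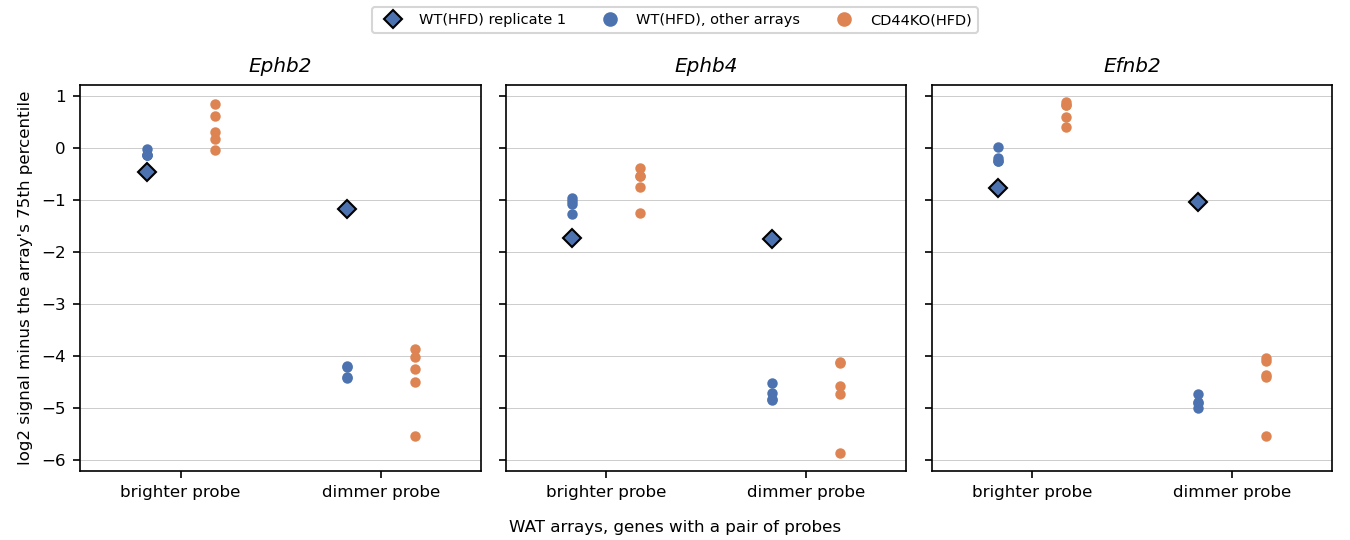
Log2 signal minus the array's 75th percentile (vertical axis) on the WAT arrays for the brighter and dimmer probes (horizontal axis) of Ephb2, Ephb4 and Efnb2. Each point is 1 array and the diamond is WT(HFD) replicate 1. On the dimmer probes that array reads −1.17, −1.74 and −1.04, well above every other WAT array, and on the brighter probes it is the lowest of its group.

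The pair of probes of Ephb2 and of Ephb4 disagreed in WAT in the same manner. The dimmer Ephb2 probe read −1.17 on WT(HFD) replicate 1 and −4.43 to −4.19 on the other 4 WT(HFD) arrays, and the difference between genotypes was −0.75 (SE 0.63) with that array and −0.12 (SE 0.31) without it. The dimmer Ephb4 probe read −1.74 on that array and −4.84 to −4.52 on the others, and the difference was −0.56 (SE 0.61) with it and 0.04 (SE 0.33) without it. By its brighter probe Ephb4 was higher in CD44KO(HFD) WAT by 0.51 (SE 0.21), and by 0.38 (SE 0.19) without that array. Within slide 4 the Ephb4 difference was 1.04 and within slide 5 it was −0.23.

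Epha1 was lower in CD44KO(HFD) WAT, the opposite of its direction in liver. Its signals were −2.62, −2.11, −1.95, −1.73 and −1.29 in WT(HFD) and −3.35, −3.11, −3.05, −2.67 and −2.67 in CD44KO(HFD). The groups were apart by a narrow margin, and the difference was −1.03 (SE 0.25), or 2.04-fold lower, and −0.47 by quantile normalization. Without WT(HFD) replicate 1 it was −0.98 (SE 0.26), and it was −0.71 within slide 4 and −0.89 within slide 5. For Ephb6 the difference was −1.20 (SE 0.54). The Ephb6 groups overlapped, and its difference rested in part on 2 arrays, WT(HFD) replicate 1 at −1.67 and CD44KO(HFD) replicate 3 at −6.05. Leaving out the former gave −0.81 (SE 0.45) and the latter −0.79.

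The other genes of the family were somewhat higher in CD44KO(HFD) WAT, with overlapping groups. Epha2 differed by 0.74 (SE 0.28), Efnb1 by 0.45 (SE 0.16), Ephb3 by 0.42 (SE 0.23) and Efna1 by 0.30 (SE 0.27). Ephb1, which was above background on every WAT array, differed by 0.52 (SE 0.40). For Ephb1 the array that stood apart had again the highest signal, −0.74, while the other 4 WT(HFD) arrays lay between −2.99 and −2.69 and all 5 CD44KO(HFD) arrays between −2.29 and −1.61. Without it the Ephb1 groups were separate and the difference was 0.94 (SE 0.16).

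Over the family in WAT, 8 of 10 genes were higher and 2 lower in CD44KO(HFD), with a median difference of 0.48, against −0.06 over all probes. Without WT(HFD) replicate 1 the counts were again 8 and 2 and the median was 0.47. Quantile normalization moved the median of all WAT probes to 0.11 and left 8 genes of the family higher and 2 lower, with a median of 0.55. None of the 10 passed limma's adjusted threshold, at which 0.0398% of all probes were called (11 of 27651, with 4111 at an unadjusted p under 0.05). Only Epha1 and Efnb2 had groups that did not overlap, as had 6.18% of all probes. Without WT(HFD) replicate 1 Ephb1 and Ephb3 joined them. With fewer arrays groups separate more easily, and no share over all probes was computed for that setting. Nothing is read from these counts, since the contrast was used in choosing the genes.

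The effect of the genotype in WAT minus its effect in liver was −1.41 (SE 0.27) for Epha1, 1.34 (SE 0.36) for Epha2, 1.12 (SE 0.27) for Efnb2 and 0.75 (SE 0.18) for Efnb1. Without WT(HFD) WAT replicate 1 these were −1.36 (SE 0.28), 1.26 (SE 0.36), 1.0 (SE 0.26) and 0.67 (SE 0.17). For Ephb4 it was 0.20 (SE 0.23) and for Efna1 0.20 (SE 0.35). Ephb2, Epha1 and Efnb1 were called by the limma interaction term, as were 1.15% of 28987 probes. Under its 26 alternatives they were called 25, 23 and 4 times, and no gene of the family was called with the replicate block. These calls restate the contrast that chose the genes and nothing is read from them.

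The difference between the tissues was not used in choosing the genes and was tested, except for Ephb2, whose liver signals were used, and Ephb1, which entered the fit only through the WAT arrays in which it was high. All WAT arrays were read on another scanner, day and set of slides than the liver arrays, so these cannot be told apart from tissue. Within WT(HFD), 5 of the 8 other genes differed between WAT and liver (limma, adjusted p under 0.05), 3 lower and 2 higher in WAT, where 68.3% of all probes were called (34.7% lower and 33.5% higher). The share of members is near that of all probes.

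Epha1 was the gene with the widest difference between the tissues. Its mean in WT(HFD) was 3.61 ± 0.09 (SD, n = 5) for liver and −1.94 ± 0.49 (SD, n = 5) for WAT. The difference was −5.55 (SE 0.22), or 46.8-fold lower in WAT (limma adjusted p = 2.47e-08). In CD44KO(HFD) it was −6.96 (SE 0.16), or 125-fold (limma adjusted p = 4.5e-11). Epha2 fell by 3.09 on the log2 scale in WT(HFD) (SE 0.19, limma adjusted p = 2.96e-07) and by 1.76 in CD44KO(HFD) (SE 0.29, limma adjusted p = 0.000161). Efna1, their A-class ligand, fell by 2.35 (SE 0.22, limma adjusted p = 5.49e-06) and by 2.15 (SE 0.26, limma adjusted p = 1.4e-05). Both A-class receptors and the A-class ligand were lower in WAT than in liver in each genotype, with no overlap between tissues.

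Of the 10 genes, Ephb1, Ephb3 and Efnb2 were higher in WAT in both genotypes. Ephb1 was well above background on all 10 WAT arrays and on no liver array, and was at least 5.10-fold higher in WAT in WT(HFD) and at least 7.16-fold higher in CD44KO(HFD), for which each liver signal was set no lower than the dimmest probe of its array that was well above background. Without WT(HFD) WAT replicate 1 the bound in WT(HFD) was 3.82-fold, and with normexp the differences were only 0.87 and 0.92 on the log2 scale. Ephb3 rose by 1.68 in WT(HFD) (SE 0.15, limma adjusted p = 5.51e-06) and by 2.23 in CD44KO(HFD) (SE 0.20, limma adjusted p = 1.29e-06). Efnb2 rose by 1.84 (SE 0.21, limma adjusted p = 3.12e-05) and by 2.96 (SE 0.17, limma adjusted p = 2.82e-08). Its dimmer probe stayed near background on all liver arrays, and in CD44KO(HFD) it was at least 1.19-fold higher in WAT. In WT(HFD) the bound was 1.58-fold with WT(HFD) WAT replicate 1, and without that array no fold could be given.

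Ephb4, Ephb6 and Efnb1 did not pass between the tissues in WT(HFD). Ephb4 differed by −0.08 (SE 0.17, limma adjusted p = 0.681), and in CD44KO(HFD) by 0.12 (SE 0.16, limma adjusted p = 0.535). Its dimmer probe gave 0.05 (SE 0.56, limma adjusted p = 0.938) in WT(HFD). Without WT(HFD) WAT replicate 1 that probe gave −0.54 (SE 0.13, limma adjusted p = 0.0028). In CD44KO(HFD) it gave −0.76 (SE 0.30, limma adjusted p = 0.0351) with no overlap, so the probes of Ephb4 disagreed. Ephb6 differed by 0.96 (SE 0.43, limma adjusted p = 0.0719) in WT(HFD), and by 0.57 without WT(HFD) WAT replicate 1. Efnb1 differed by 0.18 (SE 0.13, limma adjusted p = 0.214), and by 0.26 (limma adjusted p = 0.0472) without WT(HFD) WAT replicate 1. In CD44KO(HFD), 6 of the 8 passed, 3 lower and 3 higher in WAT, where 77% of all probes were called (43.6% lower and 33.4% higher), Efnb1 being the one that had not passed in WT(HFD), at 0.93 (SE 0.14, limma adjusted p = 8.56e-05). Ephb2 itself, given without a test, differed between WAT and liver by −0.34 (SE 0.43) in WT(HFD), or −0.76 without WT(HFD) liver replicate 4, on which it was lowest. In CD44KO(HFD) it differed by 4.11 (SE 0.50), a value that contains the low liver signals by which it was chosen. Its dimmer probe gave 0.20 (SE 0.75) in WT(HFD) and 1.62 (SE 0.68) in CD44KO(HFD), with overlapping groups. Without WT(HFD) WAT replicate 1 that probe gave −0.43 (SE 0.53) in WT(HFD).

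**Figure D5:**
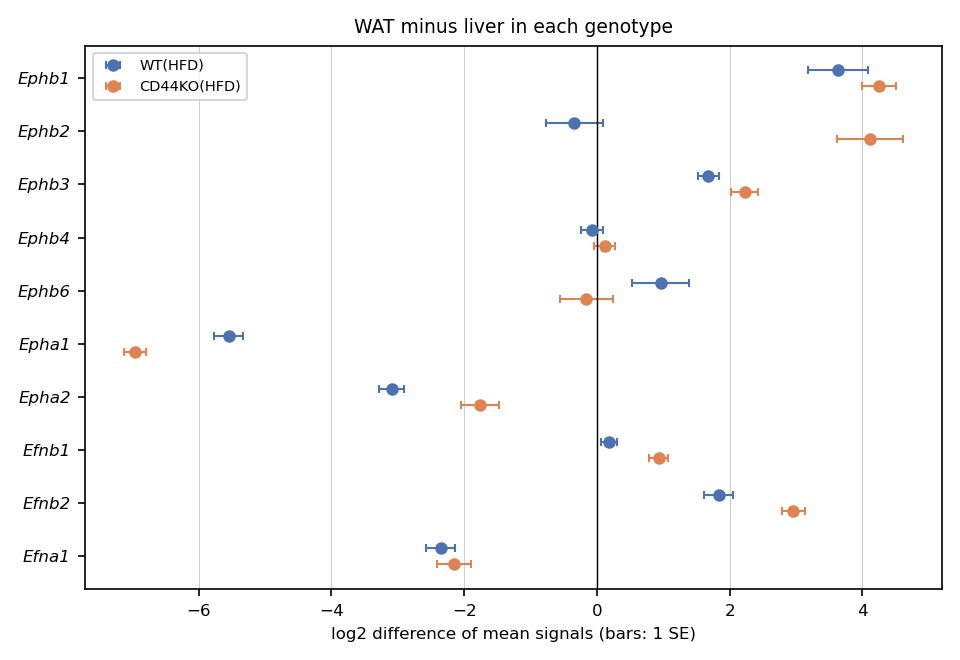
Difference of mean log2 signals, WAT minus liver, on the horizontal axis for the 10 genes on the vertical axis, in WT(HFD) and in CD44KO(HFD). Points are differences over 5 arrays of each tissue and bars give 1 SE from the fit. Ephb1 was not well above background in liver, so its points are not measured on both sides. Epha1, Epha2 and Efna1 lie below 0 in both genotypes and Ephb1, Ephb3 and Efnb2 above, while Ephb2 is at −0.34 in WT(HFD) and 4.11 in CD44KO(HFD).

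The 12 other Eph receptors and ephrins on the array were mostly dim. In liver 7 of them were compared and 1 passed, near the 13.6% of all probes. This was Epha7, with a difference of −0.48 (SE 0.12, limma adjusted p = 0.0305) with overlapping groups. Its call was lost under 11 of 17 alternatives, over which the difference ran from −0.55 to −0.008. Epha3, a receptor that was bright in liver by 1 of its 3 probes, read 1.46 in WT(HFD) and 2.04 in CD44KO(HFD), a difference of 0.58 (SE 0.24, limma adjusted p = 0.129), while its other probes were near background. Efna5, an A-class ligand, differed by 0.14 (SE 0.11, limma adjusted p = 0.412). The median over the 7 was 0.21, against 0.08 over all probes. In WAT 5 were compared and none passed limma's threshold, at which 0.0398% of all probes were called. Only Epha4 had an unadjusted p under 0.05, being higher in CD44KO(HFD) by 0.49 (SE 0.13, limma adjusted p = 0.18). The median over these 5 was −0.32. Between the tissues, 3 of 9 compared were called lower and 2 higher in WAT in WT(HFD), beside 34.7% and 33.5% of all probes. In CD44KO(HFD) 4 of 8 were called lower and 2 higher, beside 43.6% and 33.4%. Most of those compared (7 and 5) had entered through 1 tissue alone. The higher ones were Epha4 and Efna2, of the A class. In WT(HFD), Epha4 had a mean of −2.77 in WAT and was well above background on 2 of 5 liver arrays. Efna2 had a mean of −5.19 in WT(HFD) WAT and was well above background on no liver array of either genotype. In WT(HFD) they entered the fit only through WAT, where they were high, so nothing is read from their direction. Likewise Epha3, Epha6 and Epha7, called lower in WAT in both genotypes, entered only through liver, and nothing is read from theirs.

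Genes that act downstream of the receptors were read from a list of 53 adaptors, kinases, partners of ephrins in reverse signalling, proteases or phosphatases, and other signalling genes. In liver 47 were compared, of which 1 was called lower and 2 were called higher in CD44KO(HFD), a smaller share than the 5.75% and 7.85% of all probes, with a median of −0.01. Kalrn, an exchange factor for Rac that Ephb2 is known to recruit at synapses, was 0.73 higher (SE 0.09, limma adjusted p = 0.0045), with no overlap between 1.02 ± 0.11 and 1.75 ± 0.15 (SD, n = 5 each). Src, a kinase of Eph and ephrin signalling, was lower, at −3.91 against −3.18 in WT(HFD) (difference −0.74, SE 0.16, limma adjusted p = 0.0194). Over the alternatives the Src difference ran from −0.85 to −0.02. Chn2, a Rac-inactivating chimaerin, was 0.29 higher (SE 0.07, limma adjusted p = 0.033), and its call was lost under 12 of 17 alternatives, against 4 for Src and 1 for Kalrn. None of the 11 adaptors, the 10 compared genes of reverse signalling or the 5 compared proteases and phosphatases passed limma's threshold, with 2, 1 and 3 of them at an unadjusted p under 0.05. In WAT 49 of the list were compared and none passed, where 0.0398% of all probes were called. An unadjusted limma p under 0.05 was reached by 10 of the 49, beside 4111 of 27651 probes, and the median was −0.11.

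Some cell type markers were called between the genotypes in liver, where 5.75% of all probes were called lower and 7.85% higher in CD44KO(HFD). A list with 1 marker called is too short to be set apart from those shares. Tissue was read in bulk, so that fewer cells of a type and less RNA per cell cannot be told apart. Of the T cell markers 4 of 6 were lower in CD44KO(HFD) liver (limma adjusted p under 0.05), Cd8a being well above background on none of its arrays. Cd3e and Cd4 were higher by 0.12 and 0.20 and were not called. The summed signal of the 6 was 1.57 to 2.78 times the 75th percentile in WT(HFD) (median 1.70). In CD44KO(HFD) it was 1.29 to 1.82 times (median 1.75). Of the fibroblast and stellate cell markers 3 of 7 were lower (Pdgfrb, Dcn and Col1a1), with sums of 83.9 to 118 and 58.7 to 79.9 that did not overlap. Of the smooth muscle markers 1 of 5 was lower (sums 14.9 to 18.8 and 9.67 to 13.0). Of the cholangiocyte markers 1 of 5 compared was lower (1.34 to 2.38 and 1.06 to 1.38), with Cftr at background on every liver array. The macrophage marker Itgax was lower, 1 of 5 compared (5.64 to 14.4 and 7.67 to 20.5), and so were Cidec, 1 of 4 compared of the adipocyte list (76.9 to 108 and 14.1 to 78.2), and Mbp, 1 of 5 of the nerve list (0.64 to 0.98 and 0.49 to 0.65). Of the Kupffer cell markers 2 of 6, Timd4 and Marco, were higher (35.1 to 87.1 and 77.6 to 196), as was 1 of 6 hepatocyte markers (1482 to 2046 and 1972 to 2270). None of the 7 endothelial (6.92 to 9.92 and 7.99 to 10.4), 4 B cell (0.86 to 1.39 and 0.84 to 1.52), 3 mesothelial (0.18 to 0.76 and 0.24 to 1.03) and 1 epididymal marker (0.09 to 0.19 and 0.09 to 0.15) compared passed in liver. The part of these cells in the Ephb2 difference was not tested.

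In WAT none of the markers of these lists passed limma's threshold, at which 0.0398% of all probes were called. The sums of the endothelial markers did not overlap, at 14.1 to 23.1 in WT(HFD) and 28.4 to 43.2 in CD44KO(HFD). The sums of every other list overlapped, those of the mesothelial markers being 2.28 to 10.8 and 1.02 to 3.49. No share of lists without overlap was computed for comparison. By their brighter probes the endothelial genes Efnb2 and Ephb4 were higher in CD44KO(HFD) WAT, Ephb4 with overlapping groups. The part of endothelial or mesothelial cells in the family's WAT values was not tested.

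The genes whose signals followed Ephb2 most closely across the 10 liver arrays were, of 17524 genes, Mfap2 (r = 0.98), which encodes a microfibril protein, Eif2ak2 (0.97), an interferon-induced kinase, Cdkn2c (0.97), an inhibitor of cyclin-dependent kinases, Eml2 (0.97), which binds microtubules, and Svep1 (0.96), a large extracellular protein. All 5 were lower in CD44KO(HFD) liver, with differences of −1.16 to −0.20 on the log2 scale, and the points share their arrays and the split between genotypes. With each genotype centred on its own mean r was 0.92, 0.86, 0.83, 0.90 and 0.82. Across the 10 WAT arrays another 5 genes of 18979 came closest, Sh3tc2 (r = 0.99), A530016L24Rik (0.98), Fgfrl1 (0.98), Syde1 (0.98) and Slc25a25 (0.97), and centred on the genotypes r was 0.98, 0.96, 0.97, 0.95 and 0.94. These are the highest values among many and are given as a description.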

How the data were processed

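RNA of both tissues and both genotypes was labelled with Cy3 and hybridised on 20 Agilent 1-colour arrays, 5 for each genotype and tissue. The deposited values were spot intensities made by the authors with Agilent Feature Extraction (version 9.5.3.1 per the file headers), detrended within each array, not background-subtracted, and not normalized between arrays. The deposited value table of the series held the same processed intensity on all 20 arrays. The marks of 0 or 1 deposited in the other columns of the scanner files flag spots that are well above background (a signal over 13 times the SD of the background), saturated or outliers.

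Of 45018 spots per array, 43379 were not controls. The log2 of the processed signal minus the array's 75th percentile over these spots was averaged over the spots of a probe, which gave 41174 probes. Genes were named through the accession in the scanner files, of which 22951 probes matched RefSeq (GRCm38.p6), and otherwise by the name in the files. A probe was tested where 3 or more of the 5 arrays of a group compared had it well above background, which left 24688 probes in liver, 27651 in WAT, 28363 and 28340 between the tissues in WT(HFD) and CD44KO(HFD), and 28987 in the interaction of genotype with tissue. Each comparison was fitted with limma (version 3.58.1 in R 4.3.3, with data.table, version 1.17.8) on its own arrays, p-values being adjusted over all probes of the fit (Benjamini-Hochberg, threshold 0.05). SE are those of the moderated fit and SD those of 5 arrays. The fits of genotype within each tissue and of tissue within each genotype were tested on simulated data. Figures were drawn with matplotlib 3.10.9 in Python 3.11.15.

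A gene was represented by its brightest probe over all 20 arrays. All 10 genes of the family are named, and of the other Eph receptors and ephrins and the pathway genes those that passed in a comparison of the genotypes. Epha3, Epha4, Efna2 and Efna5 fall outside this rule and were named after their values were seen. The genes and lists, including 13 lists of cell type markers, were chosen with earlier results of these data known. Probe sequences were copied from the scanner files.

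Alternatives were normexp background correction (offset 50) of the mean signals, quantile normalization, no filter or a stricter filter on dim probes, slide or replicate number as a block, all 20 arrays in 1 fit, the other probe of a gene, and each array left out in turn. Liver and WAT arrays were read on different scanners and slides.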

Additional observations from a re-analysis of the deposited data

Results flagged for a closer look

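In 6 of the 40 sets of 5 arrays checked (each of the 10 genes in each group), 1 array stood apart from the other 4 by more than Dixon's limit, which chance passes in about 1 of 20 sets. In WT(HFD) WAT, replicate 1 was apart for Ephb1, at −0.74 where the nearest array read −2.69, and for Ephb2, at −0.45 against −0.14. This is the array on which 89.5% of spots were well above background. In CD44KO(HFD) WAT, replicate 2 was apart for Ephb3, at 0.54 against −0.23, and for Efna1, at 0.53 against −0.53, and replicate 3 was apart for Ephb6, at −6.05 against −4.29. In WT(HFD) liver, replicate 3 was apart for Ephb4, at −1.43 against −1.12.

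For 4 genes of the family every CD44KO(HFD) array lay to one side of the WT(HFD) mean in liver and to the other side in WAT. The effect of the genotype in WAT minus that in liver was 4.45 for Ephb2, −1.41 for Epha1, 1.34 for Epha2 and 0.75 for Efnb1. They are a description: the genes were chosen with the contrast known, so the calls of the interaction term for them are no test of these differences. Of the 52 pathway genes compared, 1 was called by the interaction term, beside 1.15% of all probes. Ngef, which encodes the Eph-coupled exchange factor ephexin-1, differed between the tissues in its response to the genotype by −1.39 (SE 0.33, limma interaction term, adjusted p = 0.0473), with 0.49 (SE 0.19) in liver and −0.90 (SE 0.26) in WAT. It was called under 7 of 26 alternatives, over which the adjusted p ran from 0.0336 to 0.164, the highest being with the replicate block.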

How the results depend on the processing

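Ephb2 was lower in CD44KO(HFD) liver under every alternative run, with differences of −6.28 to −2.18, and of −4.32 to −3.37 with 1 array left out. Of 337 alternative values of the family's differences between genotypes, 310 moved by less than 1 SD between replicates. Most of these had 1 array left out, which cannot move a mean of 5 arrays by as much as 1 SD. The replicate block, and the slide block in liver, return the same difference by design. So nothing is read from that count on how firm the differences are. The dimmer probes in WAT, and the lower bounds of the tissue folds, without WT(HFD) WAT replicate 1 were alternatives chosen after seeing the data. Of 240 alternative tissue differences of the 8 genes tested 229 kept direction and call, 6 came to pass the threshold and 5 reversed: Ephb4 in WT(HFD) without WT(HFD) WAT replicate 1 (0.0499, over a range of −0.156 to 0.0499 with 1 array left out) and in CD44KO(HFD) with normexp (−0.0252), and Ephb6 in WT(HFD) with normexp (−0.0451) and in CD44KO(HFD) with quantile normalization (0.324) and without CD44KO(HFD) WAT replicate 3 (0.246, over a range of −0.304 to 0.246). Of 68 values of Epha7, Kalrn, Src and Chn2 in liver, 28 lost the call.

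Counts of called probes over the whole array moved far more. In liver, 3358 (1420 lower, 1938 higher) became 641 with normexp (425 lower, 216 higher), 1027 with no filter, 723 with all 20 arrays in 1 fit (538 lower, 185 higher), and 924 to 4695 with 1 array left out, moving by over 1.5 times without WT(HFD) replicates 1, 2 and 5 and CD44KO(HFD) replicates 1, 2, 4 and 5. In WAT, 11 (8 lower, 3 higher) became 35 with normexp (29 lower, 6 higher), 3 with no filter, 4 with slide as a block, 1817 with all 20 arrays in 1 fit, which called Epha1, Efnb1 and Efnb2, and 3 to 37 with 1 array left out, 37 being without WT(HFD) replicate 1. The interaction count of 334 (81 lower, 253 higher) became 77 with no filter, 620 with slide as a block (279 lower, 341 higher) and 84 to 582 with 1 array left out. With normexp it was 329 (131 lower, 198 higher). The tissue counts, 19365 in WT(HFD) and 21832 in CD44KO(HFD), stayed within 1.5 times, but lower and higher calls went from 9852 and 9513 to 11094 and 6788 with normexp in WT(HFD), and from 12356 and 9476 to 16004 and 5917 in CD44KO(HFD). The median over all probes moved from −0.05 to −0.39 and from −0.24 to −0.78, and to 0.06 in CD44KO(HFD) with quantile normalization. The cause was not tested.

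Same-numbered replicates did not deviate together, with correlations of −0.04 to 0.42 in liver, −0.21 to 0.09 in WAT and −0.19 to 0.14 between tissues, so the numbers were not taken as pairs. With the replicate block the limma counts were 1329 in liver, 3 in WAT and 0 for the interaction, where 3968 had an unadjusted p under 0.05. Dim signals limit Ephb1 and Ephb6 in liver and the dimmer probes.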
